A study of Mus musculus with 3 samples.

Results

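The genes described here carry proteins and small metabolites into mitochondria. They are the Timm and Tomm translocases, which move proteins across the mitochondrial membranes, and the Slc25a carriers, which move metabolites across the inner membrane. Members were the probes whose platform annotation gives a single gene symbol that begins with Timm, Tomm or Slc25a followed by a digit. This rule took 51 of the 16281 probes in the deposited table, standing for 43 genes, of which 19 were translocases and 24 were carriers. It used names alone and no measured value.

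Almost all mitochondrial proteins are made in the cytosol and enter through the TOM complex of the outer membrane. From there the TIM23 complex and its motor draw in proteins with a presequence, while the small TIM chaperones and the TIM22 complex insert multispanning proteins, the carriers among them, into the inner membrane. Carriers of the Slc25 family then exchange amino acids, di- and tricarboxylates, nucleotides, phosphate, cofactors and iron between matrix and cytosol. In liver they link mitochondria to the urea cycle, to fatty acid synthesis and to gluconeogenesis. In erythroid cells, which mouse spleen holds, a carrier brings in the iron for heme.

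The study hybridized liver RNA against spleen RNA of the mouse on 3 two-colour oligonucleotide arrays. On each array, the spleen RNA carried Cyanine-3 and the liver RNA Cyanine-5, and both were commercial total RNAs turned into cRNA by 1 round of amplification. The labels give no strain, sex, age, treatment or number of mice, and the catalogue products are the same on all arrays, so the arrays were treated as repeats of 1 pair of RNAs. Their p-values therefore rest on array-to-array spread alone, which may be purely technical. No array has the dyes exchanged, so dye bias of a probe cannot be told apart from a difference of tissue. In RNA from whole organs, fewer cells of a type and less RNA per cell cannot be told apart either.

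Each value is the log2 of the ratio between the channels, and an exact 0 was taken as no measurement. Its direction is not stated. Liver over spleen is the likely reading, on the basis of marker genes. On array 2 the 4 measured hepatocyte markers had a median of 4.85, and on arrays 1 and 3 the 2 that were measured had medians of 4.61 and 4.23. The 7 lymphocyte markers of spleen had medians of -1.87, -1.60 and -1.16 on arrays 1, 2 and 3. Transthyretin and Apoa1 were listed at 0 on every array, and of the lymphocyte markers Cd3e lay above 0 on all 3.

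A gene's probes measured on all 3 arrays were averaged, which gave 9803 genes, and each gene's mean was tested against 0 with limma. A gene passed the test at a Benjamini-Hochberg adjusted p under 0.05 over all these genes. Values on arrays 1, 2 and 3 are given in that order, and means are given with the SD over n = 3 arrays. Among all genes 52.8% passed, 25.3% toward liver and 27.4% toward spleen. At 2-fold or more, 17.6% passed, 9.21% toward liver and 8.4% toward spleen. Array 3 had a narrower spread, the SD over all genes being 0.892 there, 0.997 on array 1 and 1.01 on array 2. Of the member genes, 18 translocases and 22 carriers were measured on all arrays.

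Translocases and carriers both lay on the liver side in their medians, and the classes differed in how widely their members spread. Of the 18 translocase genes, 11 passed toward liver and 1 toward spleen, with a median log2 ratio of 0.48. Of the 22 carrier genes, 12 passed toward liver and 5 toward spleen, with a median of 0.55. Over all genes the median was 0.02, with 25.3% past the test toward liver and 27.4% toward spleen. The carriers' share toward spleen was thus not above that of all genes. The translocases ran from -0.90 to 1.15, with an interquartile range of 0.51 and an SD over genes of 0.464. The carriers ran from -1.50 to 3.76, with an interquartile range of 1.05 and an SD over genes of 1.21. The 3.76 was that of Slc25a13, and the next carrier stood at 2.63. Over all genes the interquartile range was 0.64 and the SD over genes 0.951. The translocases were thus narrower than all genes, and the carriers wider.

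At 2-fold or more, 1 translocase gene passed, which is 5.56% of the class against 17.6% of all genes. Among carriers 8 passed at that size, which is 36.4%. Of the 22 carriers, 6 were toward liver and 2 toward spleen, against 9.21% and 8.4% of all genes. The share toward spleen was thus close to that of all genes. Slc25a17 at 2.00-fold and Timm23 at 1.97-fold fell just short of this limit. The class medians themselves did not differ beyond the spread of the arrays. Carriers lay above translocases by 0.13 on array 1 and by 0.12 on array 2, and below them on array 3, where the difference was -0.08. Without array 1 the difference of medians over the array means was -0.11. That fit held 23 carriers, with Slc25a35 added, which had an exact 0 on array 1. Carriers also varied more between arrays, with a median SD of 0.21 against 0.11 for translocases and 0.15 for all genes.

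**Figure D1:**
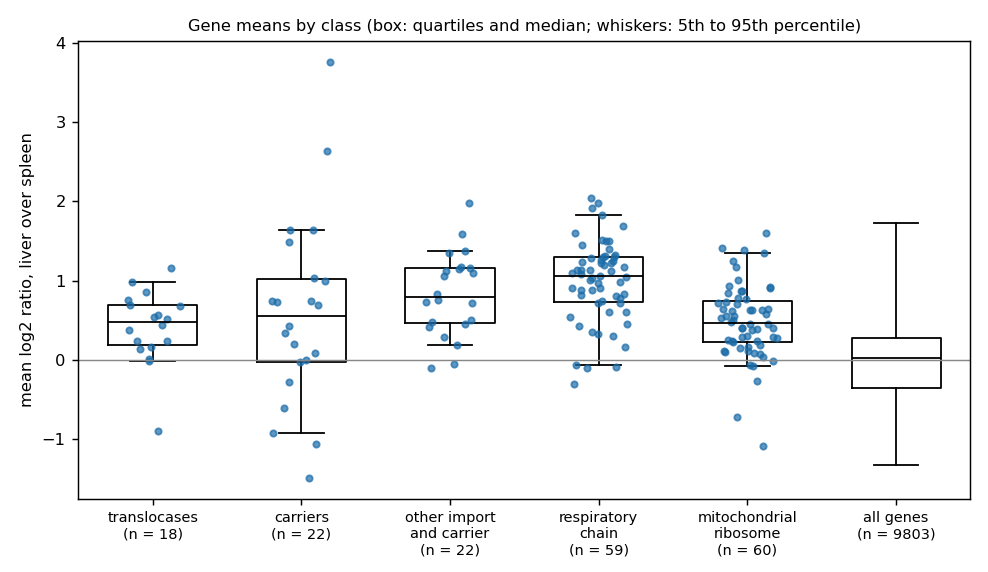
Mean log2 ratio of each gene by class, with the box marking quartiles and median over genes. Translocases sit between -0.90 and 1.15 and carriers between -1.50 and 3.76, while the box of all 9803 genes is centred at 0.02.

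The outer membrane gate came first in the order of import. Of its 5 measured genes, 2 passed toward liver and none toward spleen by limma, also at an unadjusted p under 0.05, where 3 passed toward liver. At that unadjusted limit 29.2% of all genes passed toward liver and 30.4% toward spleen. At the adjusted limit these shares were 25.3% and 27.4%. Tomm6, a small subunit that helps hold the pore together, read 0.68, 0.63 and 0.71, a mean of 0.67 ± 0.04 (adjusted p = 0.000938). The 3 arrays lay close together and well above 0. Tomm70a, a receptor for carrier precursors, read 0.33, 0.42 and 0.55, a mean of 0.43 ± 0.11 (adjusted p = 0.00768).

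The pore protein itself, Tomm40, read 0.37, 0.25 and 0.08 and did not pass (adjusted p = 0.0750). Its probes averaged 0.21 and 0.26, and both were lowest on array 3. Tomm7, a small subunit, averaged 0.14 ± 0.06 and did not pass (adjusted p = 0.176). Tomm20l, a relative of the presequence receptor Tomm20, read -0.08, 0.13 and -0.03, on both sides of 0. Tomm20 had a single value, -0.76 on array 3, and an exact 0 on both other arrays.

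Among the 5 measured genes of the TIM23 complex and its motor, 4 passed toward liver and none toward spleen by limma, with the same counts at an unadjusted p under 0.05. Timm23, the channel-forming subunit, read 1.03, 0.93 and 0.99, a mean of 0.98 ± 0.05 (adjusted p = 0.000236). It was the member of the group furthest toward liver. Timm17a and Timm17b are alternative partners of Timm23. Timm17a read 0.61, 0.46 and 0.62, a mean of 0.56 ± 0.09 (adjusted p = 0.00240). Timm17b read 0.25, 0.40 and 0.47, a mean of 0.38 ± 0.11 (adjusted p = 0.0129), and did not pass without array 2, where it averaged 0.36 (adjusted p = 0.0659). The values of both paralogs overlapped only between the lowest array of Timm17a and the highest of Timm17b.

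Timm44, which tethers the import motor to the channel, read 0.52, 0.52 and 0.51, a mean of 0.52 with an SD of 0.0051 (adjusted p = 0.00235). Its 2 probes, annotated to the same transcript record, averaged 0.53 ± 0.03 and 0.50 ± 0.03, so the narrow spread is that of their average. Timm21, which links TIM23 to the outer membrane and the respiratory chain, read 0.04, -0.17 and 0.09 and did not pass (adjusted p = 0.905). Its probes averaged 0.09 and -0.11.

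The small TIM chaperones held the translocase furthest toward liver. In the TIM22 group 5 of 7 measured genes passed toward liver and none toward spleen by limma, also at an unadjusted p under 0.05, where 6 passed toward liver. The group's median was 0.69. Timm13 read 1.17, 1.14 and 1.15, a mean of 1.15 ± 0.01 and a 2.22-fold ratio (adjusted p = 0.000121). It forms a chaperone with Timm8a1 in the space between the membranes. Timm8a1 read 0.60, 0.64 and 0.84, a mean of 0.69 ± 0.13 (adjusted p = 0.00148), so both partners lay above 0 on every array.

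Timm8b, a relative of Timm8a1, read 0.83, 0.79 and 0.95, a mean of 0.86 ± 0.08 (adjusted p = 0.000462). Its probes, again of 1 transcript record, averaged 0.83 and 0.88. Timm9 and Timm10 form the other small TIM chaperone, which hands carrier precursors to TIM22. Timm10 read 0.81, 0.64 and 0.83, a mean of 0.76 ± 0.10 (adjusted p = 0.000831). Timm9 read 0.66, 0.50 and 0.44, a mean of 0.54 ± 0.11 (adjusted p = 0.00352).

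Timm22, the channel that receives those precursors, read 0.11, 0.14 and 0.24 and did not pass (adjusted p = 0.124). Although both of its probes are annotated to the same transcript record, they averaged 0.30 and 0.03. Tested alone, the first of them passed (adjusted p = 0.0254). Timm10b, a small TIM held at the TIM22 complex, read 0.34, 0.06 and 0.29 and did not pass (adjusted p = 0.0788).

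Tomm34 was the translocase-named gene that passed toward spleen. It encodes a cytosolic co-chaperone for mitochondrial precursors and is not a subunit of the TOM complex. It read -1.04, -0.90 and -0.78, a mean of -0.90 ± 0.13 and a 1.87-fold ratio (adjusted p = 0.000549). All 3 arrays lay below every array value of the other 17 translocases measured on all arrays.

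**Figure D2:**
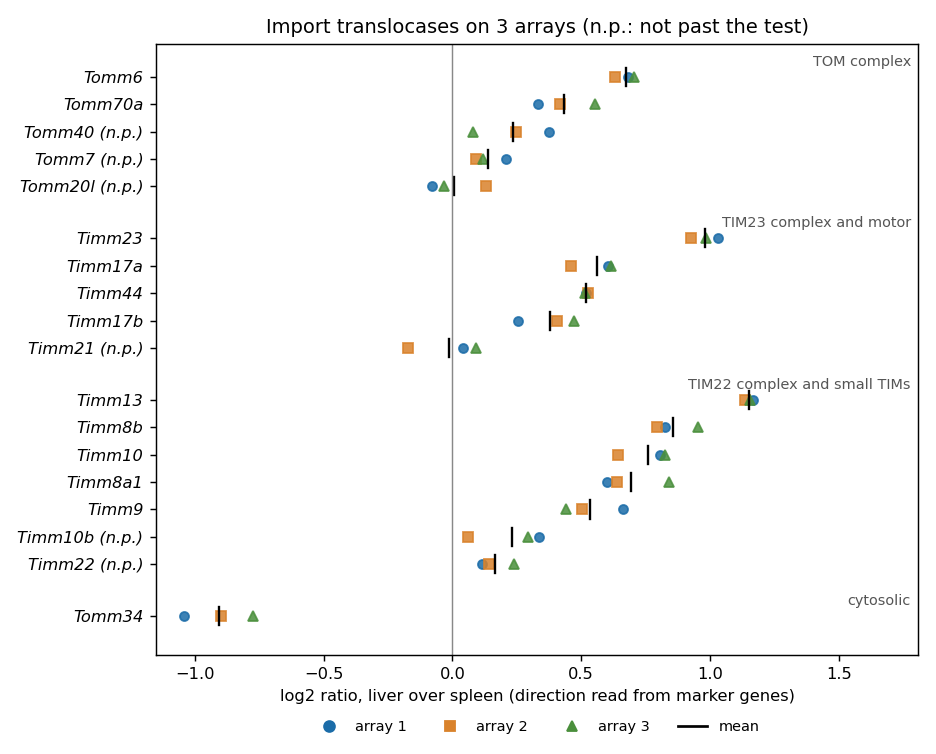
Log2 ratio of each translocase gene on arrays 1, 2 and 3 (symbols) with the mean (bar), by complex, and n.p. marking genes that did not pass the test. The small TIM gene Timm13 is highest at 1.15 and the cytosolic Tomm34 lowest at -0.90.

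Carriers of amino acids held the member furthest toward liver. Slc25a13, the aspartate-glutamate carrier known as citrin, feeds the urea cycle with aspartate and moves reducing equivalents into mitochondria. It read 3.87, 4.15 and 3.27, a mean of 3.76 ± 0.45 and a 13.6-fold ratio (adjusted p = 4.30e-05). It stood at rank 78 of the 9803 genes toward liver. The hepatocyte markers measured on all arrays were Ahsg at 3.76 ± 0.30 and Otc, the urea cycle enzyme that uses ornithine, at 4.97 ± 0.27, and the part of hepatocytes in the carrier values was not tested. Its probes averaged 3.31 and 4.21 and the lowest of their array values was 2.99.

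Slc25a15, the ornithine carrier of the urea cycle, read 1.36, 2.18 and 1.36, a mean of 1.64 ± 0.47 and a 3.11-fold ratio (adjusted p = 0.000984). Array 2 stood above the other arrays, which were alike. Its close relative Slc25a2 read 0.08, -0.08 and -0.10 and did not pass (adjusted p = 0.750). Slc25a18, a glutamate carrier, read -0.19, -0.05 and 0.21 and did not pass either (adjusted p = 0.938). The amino acid group was thus split, with 2 of 4 measured genes toward liver and 2 near 0. Among all genes 25.3% passed toward liver.

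The next group moves carboxylates and acylcarnitines, and 3 of its 4 measured genes passed toward liver, against 25.3% of all genes. Slc25a1, the citrate carrier that supplies carbon for fatty acid synthesis in the cytosol, read 1.79, 1.88 and 1.27, a mean of 1.64 ± 0.33 and a 3.13-fold ratio (adjusted p = 0.000328). Slc25a11, which exchanges oxoglutarate for malate, read 0.75, 0.85 and 0.63, a mean of 0.74 ± 0.11 (adjusted p = 0.000975). Slc25a20, which brings acylcarnitines to fatty acid oxidation, read 0.49, 0.57 and 1.00, a mean of 0.69 ± 0.27 (adjusted p = 0.00553). Both lay above 0 on every array and below 2-fold in the mean.

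Slc25a10, the dicarboxylate carrier, gave the least repeatable value of all members at 1.04, -0.33 and 0.56. Its mean of 0.42 ± 0.69 did not pass (adjusted p = 0.213). Without array 2 it averaged 0.80 and passed (adjusted p = 0.0184). The mean stayed above 0 without any 1 array, at 0.11 without array 1 and 0.36 without array 3, and array 2 decided the call.

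Carriers of adenine nucleotides and phosphate pointed both ways. Of 5 measured genes, 3 passed toward liver and 2 toward spleen, against 25.3% and 27.4% of all genes. Slc25a3, the phosphate carrier that supplies ATP synthase, read 0.75, 0.64 and 0.79, a mean of 0.73 ± 0.08 (adjusted p = 0.000841). Slc25a25 and Slc25a23 are calcium-regulated carriers of ATP-magnesium and phosphate, and they lay on opposite sides of 0. Slc25a25 read 0.75, 1.23 and 1.10, a mean of 1.03 ± 0.25 (adjusted p = 0.000979). Slc25a23 read -0.79, -1.02 and -0.99, a mean of -0.93 ± 0.13 (adjusted p = 0.000459). The difference between the paralogs was not tested, and their array values did not overlap.

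The ADP/ATP exchangers Slc25a4 and Slc25a5 were averaged from probes that differed. Slc25a4, the isoform typical of heart and muscle, averaged -1.07 ± 0.09, a 2.10-fold ratio toward spleen (adjusted p = 0.000213). Its first probe read -1.80, -2.01 and -1.81, and its second read -0.42, -0.27 and -0.13. Tested alone, the second did not pass (adjusted p = 0.0572). Both lay below 0 on every array.

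Slc25a5, the isoform of dividing cells and many tissues, averaged 0.33 ± 0.18 (adjusted p = 0.0330). Its first probe read 0.98, 1.09 and 1.03, while its second read -0.47, -0.02 and -0.62 and averaged -0.37 (adjusted p = 0.0672 alone). The probes thus lay on opposite sides of 0 on every array. The gene did not pass without array 1 (mean 0.37, adjusted p = 0.0778) or without array 2 (mean 0.23, adjusted p = 0.140). Since the coding sequences of these paralogs are much alike, signal shared between their probes was not resolved here.

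The probe differences can be read against all 2052 genes with exactly 2 probes measured on all arrays. With limma on the probe-to-probe difference, a comparison chosen after the data were seen, 35.8% of these genes had probes that differed. Among the 8 members with 2 probes, 3 did. The difference was 1.60 ± 0.20 for Slc25a4 (adjusted p = 0.000588), 1.40 ± 0.28 for Slc25a5 (adjusted p = 0.00129) and 0.90 ± 0.36 for Slc25a13 (adjusted p = 0.0103). All 3 were carriers with probes from different transcript records. The probes of the translocases Timm21 and Tomm40 also came from different records, and their differences were 0.20 and 0.06. For the 5 translocases, the differences ran from 0.03 for Timm44 to 0.28 for Timm22, at or below the median of 0.32 over the 2052 genes. A difference above 1 was found for 13.9% of those genes and for 2 of the 8 members.

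**Figure D3:**
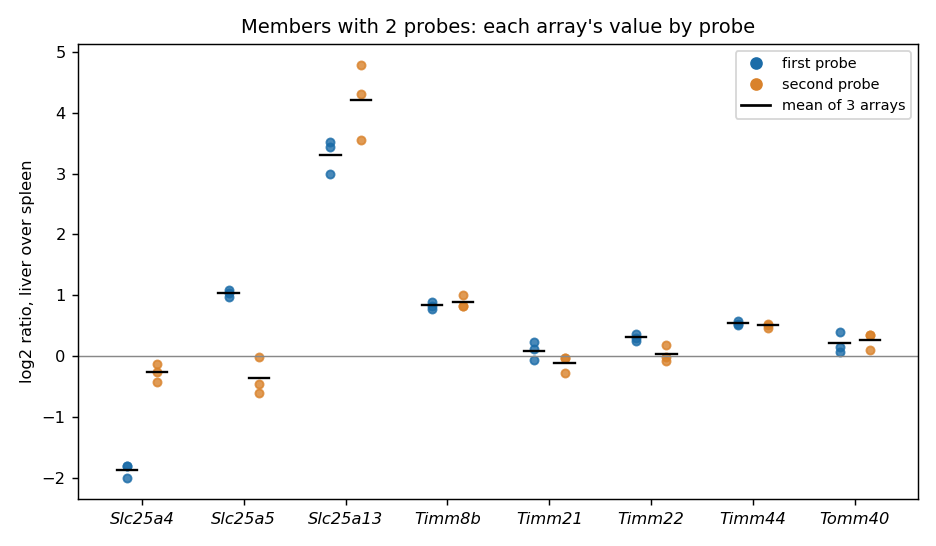
Log2 ratios on the 3 arrays (points) and their mean (bar) for each probe of the 8 members with 2 probes. The probes of Slc25a5 lie on opposite sides of 0 at 1.03 and -0.37, those of Slc25a4 at -1.87 and -0.27 both lie below it, and the probes of Timm8b, Timm44 and Tomm40 nearly coincide.

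Carriers of cofactors and pyrimidine nucleotides were mostly toward liver, with 3 of 5 measured genes past the test in that direction and 1 toward spleen. Of all genes, 25.3% were past it toward liver and 27.4% toward spleen. Slc25a33, a pyrimidine nucleotide carrier, read 2.65, 2.67 and 2.58, a mean of 2.63 ± 0.05 and a 6.21-fold ratio (adjusted p = 1.33e-05). It was second among the members toward liver, with closely similar arrays. Slc25a39, which is needed for glutathione in mitochondria, read 1.49, 1.47 and 1.48, a mean of 1.48 ± 0.01 and a 2.79-fold ratio (adjusted p = 5.05e-05). Slc25a17, which carries cofactors into peroxisomes and not mitochondria, read 1.08, 1.16 and 0.75, a mean of 1.00 ± 0.22 (adjusted p = 0.000810).

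Slc25a36, the other pyrimidine nucleotide carrier, went the opposite way to Slc25a33. It read -0.92, -0.83 and -0.09, a mean of -0.61 ± 0.45 (adjusted p = 0.0321). It did not pass without array 1, where it averaged -0.46 (adjusted p = 0.126), or without array 2, where it averaged -0.51 (adjusted p = 0.145). Slc25a26, the carrier of the methyl donor S-adenosylmethionine, read 0.48, 0.21 and -0.08 and did not pass (adjusted p = 0.214).

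Slc25a37, or mitoferrin, imports iron for heme synthesis in developing red cells and was the member furthest toward spleen. It read -1.55, -1.78 and -1.17, a mean of -1.50 ± 0.31 and a 2.82-fold ratio (adjusted p = 0.000395). It stood at rank 359 of 9803 toward spleen. All 9 measured genes of the erythroid marker list also passed toward spleen, from -3.04 for the transcription factor Klf1 to -0.40 for the transferrin receptor Tfrc, with a median of -1.66. Alas2, the first enzyme of heme synthesis in erythroid cells, averaged -1.40 ± 0.37. All measured genes of the dividing cell (6) and macrophage (5) marker lists passed toward spleen too, with medians of -2.18 and -1.98. Of the 7 lymphocyte markers 6 did, with a median of -1.38, against 27.4% of all genes. The part of erythroid or other cells in the Slc25a37 value was not tested.

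Slc25a30, a relative of the uncoupling proteins, read 0.66, 1.29 and 0.28, a mean of 0.74 ± 0.51 (adjusted p = 0.0241), and did not pass without array 1 (mean 0.78, adjusted p = 0.0624) or without array 2 (mean 0.47, adjusted p = 0.0561). Slc25a14, also related to the uncoupling proteins, read -0.23, -0.34 and -0.29, a mean of -0.29 ± 0.06 (adjusted p = 0.0240). It did not pass when any 1 array was left out, with adjusted p between 0.0699 and 0.109, although its mean stayed between -0.32 and -0.26. Slc25a46, an outer membrane protein of mitochondrial dynamics, read 0.17, -0.09 and 0.16 and did not pass (adjusted p = 0.478). Slc25a35 had an exact 0 on array 1 and read -1.34 and -1.21 on arrays 2 and 3. In the fit that admits genes measured on at least 2 arrays, it averaged -1.28 and passed toward spleen (adjusted p = 0.000986). Slc25a27 was listed at 0 on every array and has no ratio. The close relatives Slc25a12, Slc25a22, Slc25a28 and Tomm40l were not analysed here, so they could not be set beside Slc25a13, Slc25a18, Slc25a37 and Tomm40.

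Of the 5 carriers past the test toward spleen, 3 remained past it without array 2, and these were Slc25a4, Slc25a23 and Slc25a37. The same 3 remained without array 1, and Slc25a36 remained with them without array 3. Over all genes the number toward spleen was 2690 of 9803 with all arrays. It was 2202 of 10134 without array 1, 2129 of 10008 without array 2 and 2536 of 9969 without array 3. Among the 17 carriers past the test in either direction, 11 had on array 3 the ratio nearest to 0, against 3 of 12 translocases. The same share was not taken over all genes, whose SD was also lowest on array 3, at 0.892. The count is therefore not a trait shown for carriers alone. The SD over carrier genes was 1.07 on array 3, 1.23 on array 1 and 1.37 on array 2, so the narrower range of array 3 showed among them. With the arrays scaled to 1 spread, each of the 40 measured members stayed on its side of 0 and of the test's threshold.

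**Figure D4:**
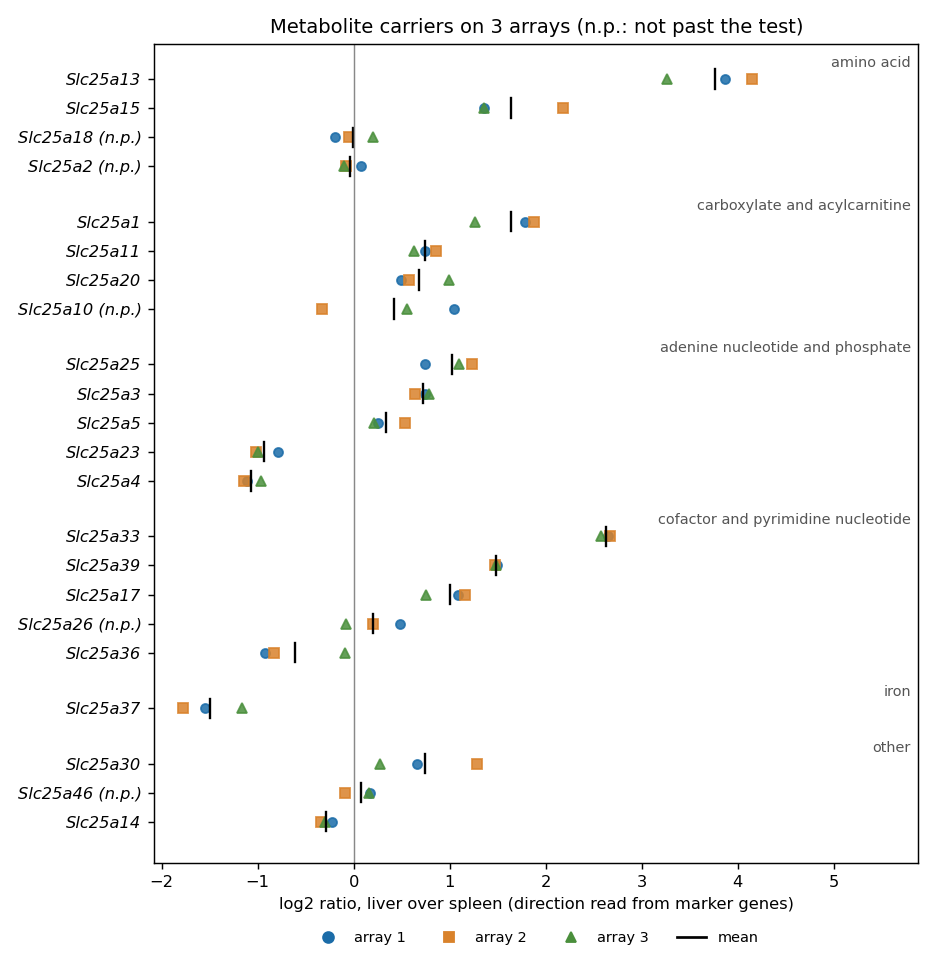
Log2 ratio of each carrier gene on arrays 1, 2 and 3 (symbols) with the mean (bar), grouped by the substrate carried, and n.p. marking genes that did not pass the test. The aspartate-glutamate carrier Slc25a13 is highest at 3.76 and the iron carrier Slc25a37 lowest at -1.50.

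Promoter sequence was set beside these ratios for the carriers furthest toward liver. Of the 43 member genes, 35 had an entry in the RefSeq promoter table for GRCm38.p6. The 250 bases before each start were searched on both strands for 7 motifs, chosen with the ratios known. A gene counted as holding a motif if any of its entries held it. The E-box CACGTG is the site of several basic helix-loop-helix factors. It was found in 6 of 18 carriers (33.3%) and 4 of 17 translocases (23.5%), against 9.03% of the tested genes with an entry. Members were counted for each motif whether tested or not. Tomm20, measured on array 3 alone and not tested, is among the 4 translocases. The carriers were Slc25a1, Slc25a13, Slc25a14, Slc25a15, Slc25a33 and Slc25a36, which include the 4 furthest toward liver and also 2 toward spleen. Slc25a15 has 2 entries, and only the second holds the E-box. Slc25a39, the next carrier toward liver, holds none. The windows of the 3 furthest toward liver are shown, 5′ to 3′ on the gene's strand, with the E-box in capitals.
Slc25a13 (chr6:6217174-6217423, minus strand): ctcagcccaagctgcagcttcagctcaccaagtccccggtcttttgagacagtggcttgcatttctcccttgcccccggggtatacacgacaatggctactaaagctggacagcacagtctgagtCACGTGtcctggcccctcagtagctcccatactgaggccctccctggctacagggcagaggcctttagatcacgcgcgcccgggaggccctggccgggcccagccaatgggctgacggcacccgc
Slc25a33 (chr4:149774268-149774517, minus strand): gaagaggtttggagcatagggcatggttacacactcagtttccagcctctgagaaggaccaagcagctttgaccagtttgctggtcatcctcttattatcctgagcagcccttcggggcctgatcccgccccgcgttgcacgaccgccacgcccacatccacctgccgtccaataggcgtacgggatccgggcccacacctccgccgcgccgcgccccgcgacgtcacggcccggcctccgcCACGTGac
Slc25a1 (chr16:17928220-17928469, minus strand): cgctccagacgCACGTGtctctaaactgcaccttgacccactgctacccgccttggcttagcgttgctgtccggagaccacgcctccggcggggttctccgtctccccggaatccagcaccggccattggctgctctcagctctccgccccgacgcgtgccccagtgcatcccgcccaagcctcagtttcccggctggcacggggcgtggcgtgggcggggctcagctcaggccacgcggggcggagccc

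The E-box began 125 bases before the start in Slc25a13, 8 bases before it in Slc25a33 and 239 bases before it in Slc25a1, so its place was not shared. The ETS motif CCGGAAG, common in genes that many cells use, was in 5 of 17 translocases (29.4%) and 4 of 18 carriers (22.2%), against 11.7% of the tested genes. The translocases were Timm8b, Timm10, Timm23, Tomm34 and Tomm70a, of which Tomm34 was toward spleen and the others toward liver. Timm13, the translocase furthest toward liver, did not hold it. The window of Timm23, the furthest of the TIM23 group toward liver, is shown with the motif, here on the opposite strand, in capitals.
Timm23 (chr14:32201892-32202141, minus strand): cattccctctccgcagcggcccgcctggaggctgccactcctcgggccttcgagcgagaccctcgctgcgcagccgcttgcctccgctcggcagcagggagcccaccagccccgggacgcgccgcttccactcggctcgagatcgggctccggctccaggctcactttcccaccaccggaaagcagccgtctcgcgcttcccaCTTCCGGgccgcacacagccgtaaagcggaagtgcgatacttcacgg

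The other motifs were the NRF-1 palindrome, in 2 of 35 members (5.71%) against 7.23% of tested genes, the cyclic AMP element TGACGTCA, in 2 (5.71%) against 2.34%, and AGATAA of GATA factors, in 4 (11.4%) against 8.78%. CAAAGTCCA of HNF4 was in none, against 0.575% of tested genes, and the DR1 repeat of nuclear receptors was in none of either. These matches describe letters in a window and show no binding. They do not split the members by direction, since the E-box and the ETS motif each occur in members on both sides of 0.

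Partners of the translocases and other carriers, listed by function, were mostly toward liver. Of 22 measured genes, 19 passed toward liver and none toward spleen by limma, also at an unadjusted p under 0.05, and their median was 0.79. All 6 measured partners of the import motor passed toward liver, from 0.83 to 1.98. Grpel1, the exchange factor of the motor chaperone, read 2.00, 2.02 and 1.93, a mean of 1.98 ± 0.05 (adjusted p = 2.37e-05). Hspa9, the motor chaperone itself, read 1.37, 1.40 and 1.38, a mean of 1.38 ± 0.02 (adjusted p = 6.39e-05). Grpel2 averaged 1.13 ± 0.19, and the J-protein partners Dnajc15, Dnajc19 and Pam16 averaged 1.16 ± 0.15, 1.15 ± 0.12 and 0.83 ± 0.05.

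Proteins that process or fold imported precursors followed. The folding chaperones Hspd1 and Hspe1 averaged 1.09 ± 0.08 and 0.73 ± 0.10, and the intermediate peptidase Mipep 1.06 ± 0.20. Pmpca, a subunit of the protease that removes presequences, was at -0.05 ± 0.04 and did not pass (adjusted p = 0.587). Gfer, an oxidase of the disulfide relay that folds small TIM proteins, averaged 1.18 ± 0.14 (adjusted p = 0.000226). Of the outer membrane sorting proteins, Mtx1 averaged 0.75 ± 0.05 and Mtx2 0.72 ± 0.06.

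Other mitochondrial transport genes without a Slc25a symbol, with relatives of the carriers among them, varied. Mtch2, an outer membrane protein of the carrier family, averaged 1.59 ± 0.10 (adjusted p = 5.76e-05), and Mtch1 0.41 ± 0.09. The pyruvate carrier subunit Mpc1 averaged 1.35 ± 0.06 (adjusted p = 7.78e-05). Of the outer membrane channels, Vdac1 averaged 0.47 ± 0.32, Vdac3 0.45 ± 0.06 and Vdac2 -0.10 ± 0.02, the last not past the test (adjusted p = 0.274). Of the uncoupling proteins, Ucp1 averaged 0.29 ± 0.15 and passed toward liver (adjusted p = 0.0419). Ucp3, at 0.18 ± 0.09, did not pass (adjusted p = 0.105).

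**Figure D5:**
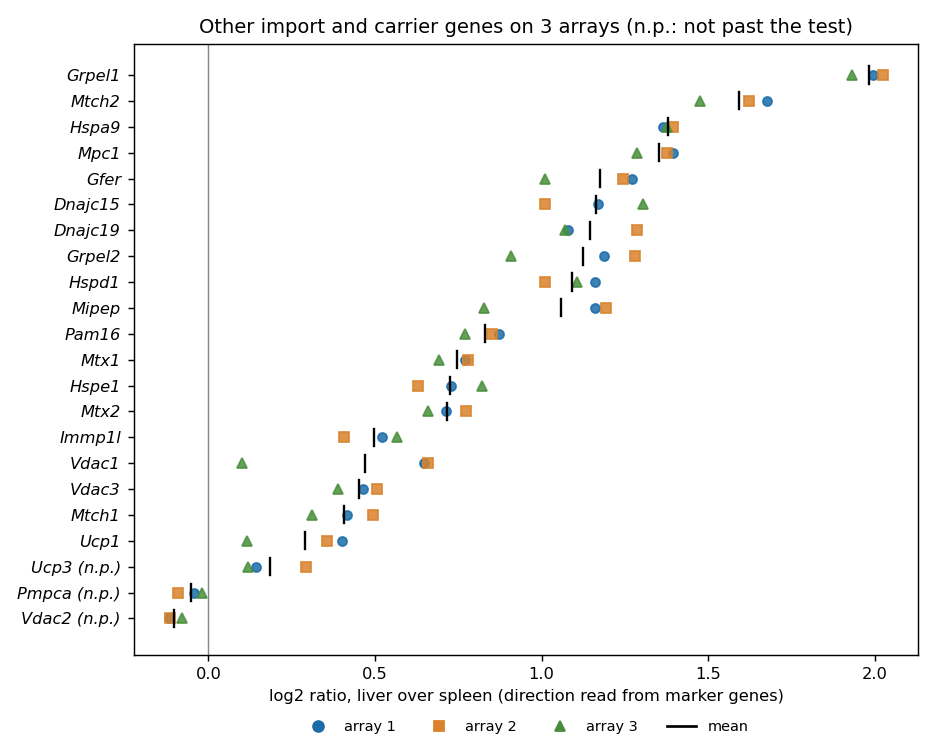
Log2 ratio on arrays 1, 2 and 3 (symbols) and mean (bar) of 22 further genes of protein import and mitochondrial transport, with n.p. marking those that did not pass the test. Grpel1 is highest at 1.98, and Pmpca and Vdac2 are the genes with means below 0.

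Other mitochondrial gene sets gave a scale for these values. The 59 measured genes of the respiratory chain and ATP synthase had a median of 1.06, and 54 passed toward liver and 1 toward spleen. For 60 mitochondrial ribosomal protein genes the median was 0.46, with 39 toward liver and 2 toward spleen. Of all genes, 25.3% passed toward liver and 27.4% toward spleen. Over genes the SD was 0.515 for the respiratory chain and 0.480 for the ribosomal proteins, near the 0.464 of the translocases. It was 1.21 for the carriers and 0.951 for all genes. These sets were described side by side and their differences were not tested.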

How the data were processed

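Per the labels, 3 two-colour arrays each compared a liver with a spleen RNA of mouse. The deposited table gives 1 log2 ratio per probe and array. Its log base was inferred from a highest value of 6.64, the log2 of 100. The sources used here do not give the background correction, the dye normalization or the ratio's direction. Intensities were not used here, so no filter on dim probes was possible, and the number of arrays limits the precision. Exact 0 values (1414, 1098 and 1137 probes on arrays 1, 2 and 3) were left out.

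Of the probes, 13738 had 1 gene symbol, 52 several and 2491 none. All 43 member genes had their Entrez number in the RefSeq table, with no symbol changed. Ratios were averaged over a gene's probes measured on all arrays and each mean was set against 0 in limma 3.58.1 under R 4.3.3 (intercept only, two-sided, 3.38 prior degrees of freedom). The fit was tested on simulated data. Members and lists were chosen with earlier results of these data known. Values on every array are printed for the largest members of each class, those opposite to most of their class, those with unlike probes or exact 0 values and for close pairs. Those printed for other members, and the probe-to-probe test, were chosen after the values were seen. Alternatives left out each array, centred or scaled the arrays, and changed the handling of probes, exact 0 values, missing arrays and variances.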

Additional observations from a re-analysis of the deposited data

How the results depend on the processing

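Of the 29 member genes past the test, 23 kept direction and call under every alternative, and Slc25a4, Slc25a5, Slc25a14, Slc25a30, Slc25a36 and Timm17b did not, as given with their values above. With exact 0 kept as a ratio, Slc25a5, Slc25a30 and Slc25a36 did not pass either (adjusted p = 0.0545, 0.0692 and 0.0817), while their means were those reported above. Leaving out 1 array moved the carrier count toward spleen between 3 and 4, the carrier median between 0.37 and 0.58, and the carrier minus translocase median between -0.11 and 0.10. That difference was 0.25 with each probe on its own, -0.056 with exact 0 kept and -0.053 with genes measured on at least 2 arrays. Each of the negative values came from a fit that also took in Slc25a35, so they are not separate signs of instability. Slc25a35 is also among the 4 carriers counted toward spleen without array 1. Over the 22 carriers measured on all arrays the difference was negative on array 3 alone, at -0.08, so its sign was not settled between arrays. The carrier median was 0.69 with each probe on its own or with genes of 1 measured probe, 0.38 with exact 0 kept and 0.42 with genes measured on at least 2 arrays. The translocase median was 0.43 with each probe on its own or with exact 0 kept, and 0.54 over genes of 1 probe. Over genes of 1 probe, 11 of the 12 remaining partner genes passed toward liver. Signs turned for 4 genes near 0 that did not pass and for 1 probe of Slc25a5. That gene passed with its probes averaged, while the probe alone did not by limma (adjusted p = 0.0672). Slc25a18 ran from -0.118 to 0.079 without 1 array, Slc25a2 from -0.088 to 0.00019, Timm21 from -0.067 to 0.066 and Tomm20l from -0.055 to 0.050. Tomm20l was at -0.016 with arrays centred, Timm21 at 0.087 on its first probe and Slc25a5 at -0.37 on its second. Liver and spleen are paired within each array, and the test against 0 uses that pairing.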

Other observations

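Genes of protein import that were not measured on all arrays gave a few further values. Pmpcb, the catalytic partner of Pmpca in the protease that removes presequences, gave 1.81 and 1.76 on arrays 1 and 3 and an exact 0 on array 2, while Pmpca averaged -0.05 ± 0.04. Romo1, an inner membrane protein linked to the TIM23 complex, gave 1.14 on array 3 and an exact 0 elsewhere.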
